A study of Mus musculus with 20 samples.

Results

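The 10 genes described here belong to Notch signaling and to the neural progenitors in which it is best known: the receptors Notch1, Notch2 and Notch3, the ligands Dll1, Dll3 and Jag1, the transcriptional effectors Hes1, Hes5 and Hey1, and the progenitor transcription factor Sox2. They were chosen by gene symbol. All 10 were found, among 14700 genes with values in any of the 4 deposited tables, and all 10 had rows in every table. The data are total RNA sequencing of primary neurons that came from the cortex of mouse embryos at day 15 and had been in culture for 7 days. There were 20 libraries from 10 cultures. N_WT denotes wild-type cultures kept for 12 h in normoxia, in medium with D-glucose at 25 mM and sodium pyruvate at 0.2 mM. OGD_WT denotes wild-type cultures deprived of oxygen and glucose (OGD) for 12 h, at 1% oxygen and 5% CO2 in medium without those additions, a culture model of ischemia. N_KO and OGD_KO are the same 2 conditions in cultures labelled ciRS-7 KO, in which the circular RNA ciRS-7 (listed as Cdr1as) was knocked out. Each group had 5 libraries, and the strain entry of every library, wild type included, was C57BL/6N-Cdr1asem1Nikr. The libraries were numbered 1 to 5. Within a genotype, an N and an OGD library of equal number carried 1 genotype label (WT1, for example) and 1 batch label, and such a pair is called a culture here. Whether a culture was 1 animal or pooled embryos was not given in the sources used here.

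Notch receptors are cut after they bind a Delta-like or Jagged ligand on a neighbouring cell, and the released intracellular part enters the nucleus, where it joins the DNA-binding protein RBPJ and a Mastermind-like coactivator. In the developing cortex this switches on repressors of the Hes and Hey families, which hold down proneural genes such as Neurog2 and keep radial glia in a dividing state. Newborn neurons carry the Delta-like ligands and so signal back to the progenitors that made them, and Sox2 marks those progenitors.

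RBPJ binds a sequence of which GTGGGAA is a common form, and the promoter of Hes5, a textbook target of Notch, shows where such letters lie. RefSeq promoters of GRCm38.p6 were searched in the 250 bases before the start site, on both strands and with each motif searched separately, so that matches may overlap. Windows were found for 8 of the 10 genes, with no entry for Hes1 or Hey1. GTGGGAA was present in 5.42% of the 32851 promoters of the table, and among the 8 genes only Hes5 held it, with 2 matches. The first lay at -226 on the minus strand and the second at -83 on the plus strand, counted from the start site. In the sequence below the capitals mark those matches in chr4:154960673-154960922, on the plus strand. The promoter of Jag1, the gene of the 10 with the largest difference under OGD, is set beside it (chr2:137116521-137116770, minus strand). There the capitals mark 2 matches to GCGTG, a core recognised by hypoxia-inducible factors, which was present in 28.2% of all promoters.
Hes5: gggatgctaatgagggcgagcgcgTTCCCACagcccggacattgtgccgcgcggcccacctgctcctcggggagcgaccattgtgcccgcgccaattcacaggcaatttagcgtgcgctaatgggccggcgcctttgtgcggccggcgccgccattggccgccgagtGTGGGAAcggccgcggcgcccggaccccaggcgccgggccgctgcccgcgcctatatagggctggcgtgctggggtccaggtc
Jag1: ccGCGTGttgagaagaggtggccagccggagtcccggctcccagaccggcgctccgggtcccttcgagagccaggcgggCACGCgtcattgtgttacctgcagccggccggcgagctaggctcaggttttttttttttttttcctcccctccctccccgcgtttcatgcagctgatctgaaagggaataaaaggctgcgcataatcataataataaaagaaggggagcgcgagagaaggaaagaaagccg
GCGTG was also present in the windows of Notch2, Notch3, Dll1 and Hes5. The other hypoxia core, ACGTG, was present in 16.6% of all promoters and among the 8 genes only in Notch3. CACNAG, the N-box of Hes repressors, was present in 36.7% of all promoters and in the windows of Notch1, Notch2 and Notch3. These matches are letters in a window and were not tested for binding.

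Depth was 7071506 to 13168705 recovered reads per library in N_WT and 9216541 to 16657766 in OGD_WT. In KO it was 7580741 to 14762866 in N_KO and 7494946 to 14523455 in OGD_KO. The unit is log2 CPM, the log2 of read counts scaled to library size, within the table of each comparison, after a clipping of the extreme libraries in the deposited values had been undone. A gene is called where its limma p, adjusted over all genes of the table by the Benjamini-Hochberg method, is under 0.05. Cdr1as fell by 6.32 on the log2 scale in N_KO against N_WT and by 6.26 in OGD_KO against OGD_WT, which checks the genotype labels. Cdr1os, the other gene examined at the knockout locus, was called higher in both comparisons. Both genes are thus among the 5 called between genotypes in normoxia and the 4 called under OGD. Of 8 genes known to respond to hypoxia, 7 rose and 1 (Ndrg1) fell under OGD in each genotype. The nominal replicates are cultures, so the p-values measure the spread between cultures.

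Under OGD 5 of the 10 genes were called higher in both genotypes, as were 2533 of the 14097 genes in both OGD tables. Of the others, 3 passed the test in 1 of the genotypes (Notch2 in WT, Dll1 and Dll3 in KO), and Notch3 and Hes5 passed in neither. In wild-type cultures 6 of the 10 genes rose and 0 fell, where 44.3% of all genes were called, 21.6% higher and 22.8% lower. In knockout cultures 7 of 10 rose and 0 fell, where 40.9% of all genes were called, 21% higher and 19.9% lower. Jag1 (4.41-fold in WT, 4.11-fold in KO), Hes1 (2.56-fold and 2.73-fold), Hey1 (2.55-fold and 2.15-fold), Notch1 (1.86-fold and 1.94-fold) and Sox2 (1.63-fold and 1.62-fold) rose in both genotypes. Their OGD libraries all lay above their normoxic libraries, as 13.9% of all genes did in WT and 13.4% in KO. The other 5 genes had differences of 0.57 or less on the log2 scale. The median log2 fold change of the 10 genes was 0.62 in WT and 0.64 in KO, beside -0.03 and 0.00 over all genes. Between genotypes 0 of the 10 passed the threshold, in normoxia or under OGD. These are bulk samples, in which fewer cells of a type and less RNA per cell cannot be told apart.

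These directions depend in part on how libraries are scaled. With libraries scaled by their total recovered reads alone, the median of all genes moved to -0.30 in WT and -0.28 in KO. The split of higher against lower calls then went from 3069 against 3244 to 1625 against 5744 genes in WT, and from 3021 against 2863 to 1479 against 5289 in KO. On that scale the 10 genes had medians of 0.36 and 0.38. Notch1, Jag1, Hes1, Hey1 and Sox2 were still called in WT, and Notch1, Jag1, Hes1 and Hey1 in KO.

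**Figure D1:**
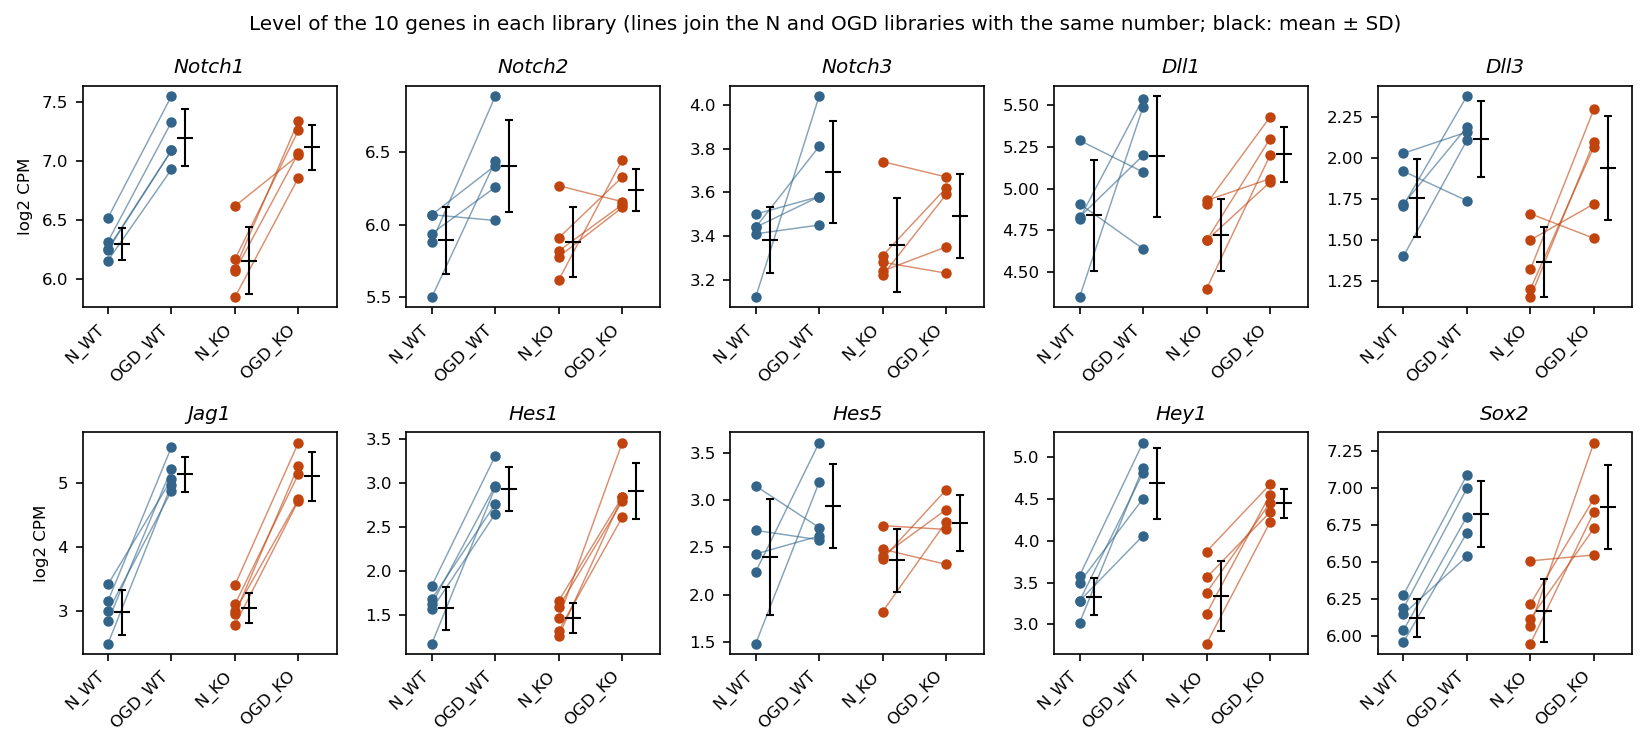
Level of each of the 10 genes, in log2 CPM within the table of its OGD comparison, in the 5 libraries of N_WT, OGD_WT, N_KO and OGD_KO. Lines join the N and OGD libraries of a culture, black marks give mean ± SD (n = 5), and the vertical axes differ between genes; Jag1, Hes1, Hey1, Notch1 and Sox2 do not overlap between N and OGD, while Hes5 and Notch3 do.

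Notch1, the main Notch receptor of cortical progenitors, lies on the minus strand of chromosome 2 (26457903 to 26516663, GRCm38). In N_WT it stood at 6.32, 6.52, 6.26, 6.25 and 6.16 log2 CPM in replicates 1 to 5, and in OGD_WT at 7.33, 7.55, 7.09, 7.09 and 6.93. In N_KO it stood at 6.07, 6.62, 6.17, 6.09 and 5.85, and in OGD_KO at 7.07, 7.05, 7.26, 7.34 and 6.86. Every OGD library was above every normoxic library of its genotype, and replicate 2 of N_KO was the highest of the normoxic ones. The log2 fold change was 0.90 in WT (SE 0.15, adjusted p = 5.32e-05) and 0.96 in KO (SE 0.16, adjusted p = 0.000118). By the two-sided exact permutation test of 5 against 5 libraries p was 0.00794 in each genotype, the smallest this design allows. The readings rested on 541 to 2460 reads per library.

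Notch2, a receptor of the same pathway on chromosome 3 (98013527 to 98150361, plus strand), was at 5.89 ± 0.24 (SD, n = 5) in N_WT and 6.41 ± 0.31 in OGD_WT. Its log2 fold change of 0.51 in WT was called (SE 0.16, adjusted p = 0.0152), although replicate 5 of OGD_WT, at 6.03, lay below 2 of the N_WT libraries. Cultures 2 and 4 supplied most of that difference, with 1.01 and 0.94 on the log2 scale, against 0.34, 0.32 and -0.04 in cultures 1, 3 and 5. Without culture 2 the adjusted p was 0.0646, without culture 4 it was 0.0673, and scaled by total reads it was 0.251. In KO the log2 fold change was 0.36 (SE 0.15, adjusted p = 0.056), which did not pass. Notch3, a receptor also known from vascular smooth muscle, lies on chromosome 17 (32120820 to 32166852, minus strand). It had log2 fold changes of 0.31 in WT (adjusted p = 0.104) and 0.13 in KO (adjusted p = 0.509), and scaled by total reads the KO value turned to -0.15. Its groups overlapped in both genotypes.

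Jag1, a transmembrane ligand of Notch receptors on the minus strand of chromosome 2 (137081456 to 137116644), differed most of the 10. In N_WT it stood at 3.42, 3.0, 2.85, 2.50 and 3.16 log2 CPM in replicates 1 to 5, from 56 to 148 reads, and in OGD_WT at 5.05, 4.87, 5.21, 4.96 and 5.55, from 241 to 504 reads. In N_KO it stood at 3.0, 2.79, 3.11, 2.96 and 3.41, and in OGD_KO at 4.74, 4.72, 5.13, 5.26 and 5.62. The lowest OGD library was thus above the highest normoxic library by more than 1 on the log2 scale in each genotype. The log2 fold change was 2.14 in WT (SE 0.17, adjusted p = 6.32e-09) and 2.04 in KO (SE 0.18, adjusted p = 1.18e-07). Ranked by log2 fold change, Jag1 was at place 74 of 14235 genes in WT and 78 of 14375 in KO.

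The 2 Delta-like ligands moved less. Dll1, which cortical neurons and intermediate progenitors present to radial glia, lies on chromosome 17 (15367354 to 15376872, minus strand). It stood at 4.82, 5.29, 4.83, 4.91 and 4.35 log2 CPM in N_WT and at 5.54, 5.10, 5.20, 4.64 and 5.49 in OGD_WT, where the groups overlapped. In N_KO it stood at 4.40, 4.69, 4.69, 4.91 and 4.93 and in OGD_KO at 5.20, 5.04, 5.30, 5.43 and 5.06, where they did not. The log2 fold change was 0.48 in KO (SE 0.14, adjusted p = 0.0121) and 0.35 in WT (SE 0.18, adjusted p = 0.125). Without KO culture 1 the adjusted p in KO was 0.104, without culture 3 it was 0.0923, and scaled by total reads it was 0.321. Dll3, a divergent ligand known to act inside the cell on Notch, lies on chromosome 7 (28293553 to 28302238, minus strand) and was read at only 15 to 61 reads per library. Its log2 fold change was 0.57 in KO (SE 0.18, adjusted p = 0.0177) and 0.36 in WT (SE 0.18, adjusted p = 0.101), with overlapping groups in both. The KO call was lost with the culture as a block (adjusted p = 0.0626). It was also lost without KO culture 1 (0.108), 3 (0.127) or 4 (0.0658), and when scaled by total reads (0.186).

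Hes1, a basic helix-loop-helix repressor and a direct target of Notch in many tissues, lies on the plus strand of chromosome 16 (30064384 to 30067796). In N_WT it stood at 1.62, 1.83, 1.68, 1.56 and 1.17 log2 CPM, from 14 to 46 reads, and in OGD_WT at 2.97, 3.31, 2.76, 2.65 and 2.95, from 46 to 114 reads. The N_KO libraries stood at 1.59, 1.46, 1.66, 1.32 and 1.26, and in OGD_KO at 2.79, 3.46, 2.84, 2.61 and 2.84. The groups did not overlap in either genotype, and replicate 2 was the highest OGD library in both. Hes1 had a log2 fold change of 1.36 in WT (SE 0.17, adjusted p = 2.84e-06) and 1.45 in KO (SE 0.17, adjusted p = 4.66e-06).

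Hey1, a repressor of the related Hey family, lies on the minus strand of chromosome 3 (8663359 to 8667256). In N_WT it stood at 3.50, 3.58, 3.28, 3.02 and 3.28 log2 CPM and in OGD_WT at 4.50, 5.17, 4.81, 4.87 and 4.06. The N_KO libraries stood at 3.56, 3.87, 3.38, 3.13 and 2.77, and in OGD_KO at 4.34, 4.67, 4.45, 4.55 and 4.22. Culture 5 was the lowest under OGD in both genotypes, and even there the OGD library lay above all normoxic libraries of its genotype. Hey1 had a log2 fold change of 1.35 in WT (SE 0.18, adjusted p = 5.38e-06) and 1.11 in KO (SE 0.18, adjusted p = 0.000105).

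Hes5, the effector most closely tied to Notch in radial glia and the gene whose promoter is printed above, did not follow Hes1 and Hey1. It lies on the plus strand of chromosome 4 (154960923 to 154962371). In N_WT it stood at 2.24, 3.15, 2.68, 2.43 and 1.48 log2 CPM, from 18 to 124 reads, and in OGD_WT at 3.61, 2.71, 2.58, 2.62 and 3.19, from 45 to 181 reads. In N_KO it stood at 1.82, 2.38, 2.41, 2.73 and 2.48, and in OGD_KO at 2.77, 3.11, 2.90, 2.69 and 2.32. The groups overlapped in both genotypes, and N_WT had the widest spread of the 10 genes, 0.62 (SD, n = 5) against 0.12 to 0.35 for the other 9. The log2 fold change was 0.55 in WT (SE 0.25, adjusted p = 0.0772) and 0.39 in KO (SE 0.19, adjusted p = 0.0981), so neither passed. Its 95% interval ran from 0.03 to 1.06 in WT and from 0.00 to 0.78 in KO, and the estimates for Hes1 and Hey1 lay above it in each genotype. The intervals themselves overlapped in part. Those of Hes1 and Hey1 began at 1.00 and 0.98 in WT, and that of Hey1 began at 0.73 in KO. The difference between Hes5 and those 2 genes was not itself tested. Single cultures moved the value of Hes5 both ways. In WT it was 0.79 without culture 2 (adjusted p = 0.0338) and 0.71 without culture 3 (0.0371), but 0.34 without culture 1 (0.318) and 0.26 without culture 5 (0.265). In KO it ran from 0.25 without culture 1 (adjusted p = 0.376) to 0.53 without culture 5 (0.0235).

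Sox2, a single-exon gene on the plus strand of chromosome 3 (34650405 to 34652461) that lies within the noncoding gene Sox2ot, encodes a transcription factor of neural stem and progenitor cells and of glia. In N_WT it stood at 6.19, 6.28, 6.04, 6.15 and 5.96 log2 CPM and in OGD_WT at 7.00, 7.09, 6.81, 6.54 and 6.70. In N_KO it stood at 5.95, 6.07, 6.22, 6.51 and 6.12, and in OGD_KO at 6.84, 7.31, 6.93, 6.55 and 6.73. The groups did not overlap, although in KO culture 4 the normoxic library, at 6.51, nearly reached its OGD library at 6.55. The log2 fold change was 0.70 in each genotype, with an SE of 0.14 and an adjusted p of 0.000486 in WT, and an SE of 0.16 and an adjusted p of 0.00205 in KO. Scaled by total reads it was 0.41 in KO, with an adjusted p of 0.0566.

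**Figure D2:**
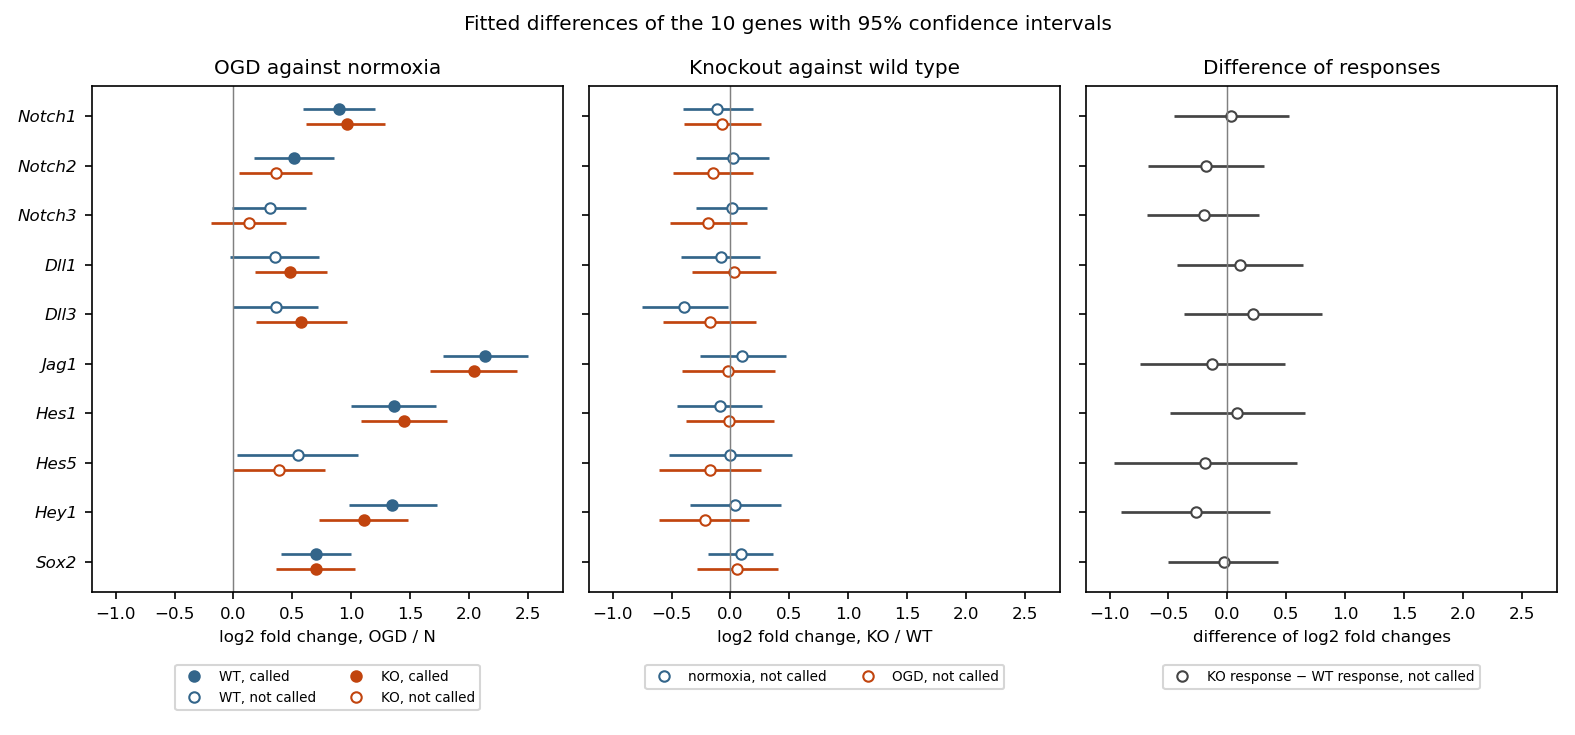
Fitted log2 differences of the 10 genes with 95% confidence intervals, for OGD against normoxia in each genotype (left), knockout against wild type in each condition (middle) and the difference between the 2 responses (right). Filled points are called by limma at an adjusted p under 0.05 and open points are not; the left panel holds 6 filled points for WT and 7 for KO, and the other panels hold 0.

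The response of each culture, its OGD library minus its N library in log2 CPM, separated the genes that moved everywhere from those that did not. The pairing of these libraries rests on the labels alone. Notch1, Jag1, Hes1, Hey1 and Sox2 were higher under OGD in 10 of 10 cultures. All 5 cultures were higher for 20.9% of all genes in WT and for 19.8% in KO. Notch2, Notch3, Dll1 and Dll3 were higher in 8 of 10 cultures each and Hes5 in 6 of 10. No share over all genes was computed for counts out of 10 cultures. Hes5 had the widest range, with responses of 1.36, -0.44, -0.09, 0.19 and 1.71 in WT cultures 1 to 5. WT culture 5, with the lowest normoxic level of Hes5, had the largest response, and WT culture 2, with the highest, had the lowest response. Each response contains the normoxic value with a minus sign, so these 2 readings are not independent.

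Cultures carried batch labels 1 (WT1 and KO1), 2 (KO3), 3.1 (WT5, KO2 and KO4), 3.2 (WT3) and 3.3 (WT2, WT4 and KO5), so that batches 1, 3.1 and 3.3 held both genotypes. Jag1 responses ran from 1.63 to 1.74 in batch 1, from 1.93 to 2.39 in batch 3.1 and from 1.87 to 2.46 in batch 3.3, and Hes1 responses were 1.08 or more in every batch. The responses of Dll1, Hes5 and Hey1 varied between batches. The 3 cultures of batch 3.3 had Dll1 responses of -0.28 to 0.13, against 0.34 to 1.14 in the other 7 cultures. They had Hes5 responses of -0.44 to 0.19, which the culture of batch 3.2 (-0.09) and the lowest of batch 3.1 (-0.05 to 1.71) overlapped, while batch 2 was at 0.49 and batch 1 at 0.95 to 1.36. Hey1 responses were 1.45 to 1.85 in batch 3.3, 1.53 in batch 3.2, 0.78 to 1.42 in batch 3.1, 1.07 in batch 2 and 0.78 to 1.00 in batch 1. The batches come from the labels, but these patterns were noticed in the data, and each batch holds 3 cultures or fewer, so no test was made. A fit with the batch as a covariate merged 3.1, 3.2 and 3.3 into 1 batch, so differences among those were not adjusted for. With that covariate limma called 6 of the 10 genes in WT and 7 in KO, and 5871 and 4796 of all genes. In the cultures of batches 3.1 to 3.3 alone it called 6 of the 10 in WT and 4 in KO, and 4916 and 2341 of all genes. Dll1, Dll3 and Sox2 lost their calls in that last fit, with log2 fold changes of 0.33, 0.31 and 0.63 from 3 cultures.

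**Figure D3:**
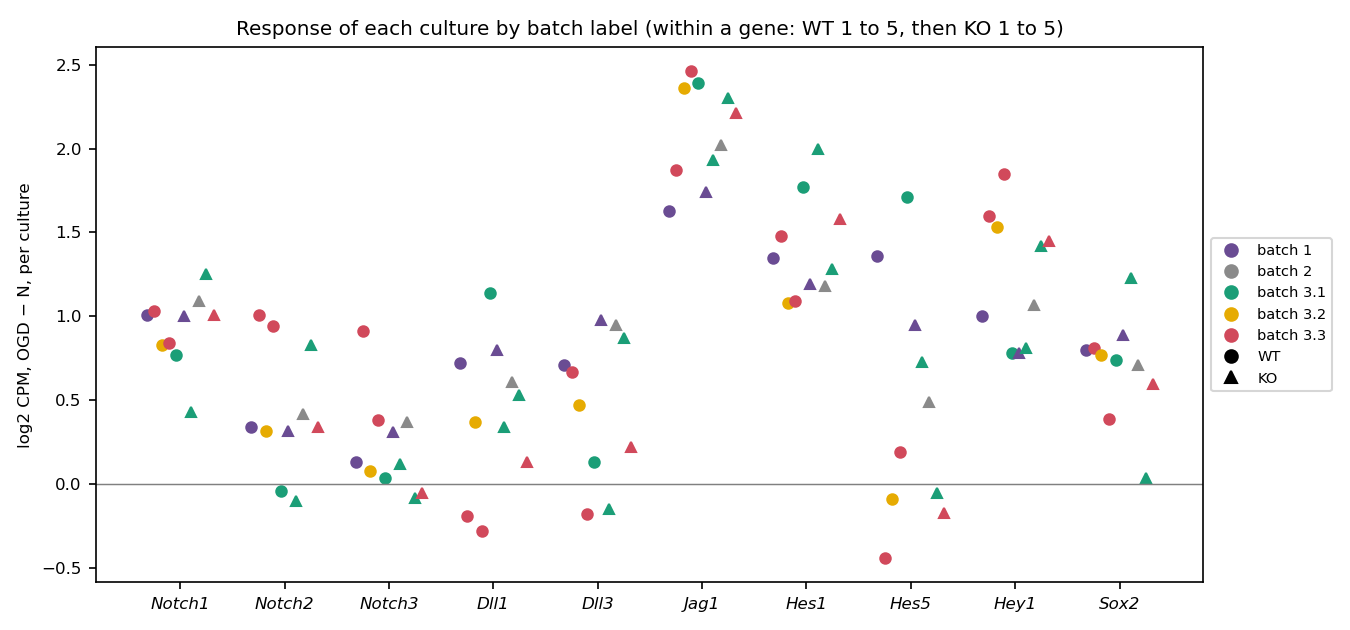
Response of each of the 10 cultures (OGD minus N, log2 CPM) for each gene, coloured by batch label, with circles for WT and triangles for KO. The Jag1 points all lie above 1.6 and the Hes1 points above 1, while Hes5 runs from -0.44 to 1.71, with the batch 3.3 cultures at 0.19 or lower.

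The comparison of genotypes asks whether loss of ciRS-7 changes these genes. In normoxia limma called 0 of the 10 (0.0353% of all genes were called, 5 of 14152, with 0.0212% higher and 0.0141% lower). Of the 10, 1 gene, Dll3, had an unadjusted p under 0.05, as had 256 of all 14152 genes. Dll3 stood at 1.40, 1.75, 1.23, 1.28 and 1.58 log2 CPM in N_KO and at 1.47, 1.78, 1.80, 2.01 and 2.12 in N_WT. The groups overlapped, and the difference was -0.39 (SE 0.17, adjusted p = 1; two-sided exact permutation p = 0.0397 before adjustment). The other 9 genes differed by -0.11 to 0.10 on the log2 scale. Over all 10 the 95% intervals of the difference spanned -0.75 to 0.52, so larger effects of the knockout in normoxia lay outside them.

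Under OGD limma again called 0 of the 10 (0.0282% of all genes were called, 4 of 14185, with 0.0211% higher and 0.00705% lower). Of the 10, 0 had an unadjusted p under 0.05, where 253 of all 14185 genes had one. The differences of OGD_KO from OGD_WT ran from -0.22 for Hey1 to 0.06 for Sox2, and the 95% intervals spanned -0.61 to 0.40. Jag1 differed by -0.02 (95% interval -0.41 to 0.38), Hes1 by -0.01 (-0.38 to 0.37) and Notch1 by -0.07 (-0.39 to 0.26). Hes5 differed by -0.17, and its interval (-0.61 to 0.26) reached values as large as its own difference between OGD and normoxia.

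The difference between the responses, KO minus WT, was tested in all 20 libraries on 1 joint scale. Limma called 0 of 13688 genes (0% of all genes), with 99 genes at an unadjusted p under 0.05, and 0 of the 10 genes at either threshold. The estimates ran from -0.27 for Hey1 (95% interval -0.90 to 0.36) to 0.22 for Dll3 (-0.37 to 0.80). The intervals are wide: that of Hes5 ran from -0.96 to 0.59 and that of Jag1 from -0.74 to 0.49, so a difference in response of about 0.5 on the log2 scale was not detectable here. Calls in 1 genotype alone (Notch2 in WT, Dll1 and Dll3 in KO) therefore do not show that the genotypes differ.

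The other genes of the pathway were described from 6 lists, with 114 genes of which 103 were measured in each OGD table. Limma called 37 higher and 24 lower in WT (59.2%) and 33 higher and 21 lower in KO (52.4%), beside 44.3% and 40.9% of all genes. None was called between genotypes or for the difference in response. The lists moved in different directions, as the plot of fold changes by list shows.

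Among the other receptors and ligands 7 of 10 were measured, with no row in the OGD tables for Notch4, Dlk1 and Mfap5. In each genotype 1 rose and 4 fell, and the list's median log2 fold change was -0.71 in WT and -0.54 in KO. Dll4, a Delta-like ligand best known from blood vessels, rose by 0.69 in WT and 0.89 in KO. The 4 that fell are atypical ligands: Ccn3 (-1.32 and -1.27), a secreted matrix protein, the neuronal adhesion proteins Cntn6 (-1.02 and -1.06) and Cntn1 (-0.74 and -0.76), and Dlk2 (-0.71 and -0.54). Scaled by total reads, 0 of the 7 rose and 6 fell in WT, where Dll4 was at 0.53 (adjusted p = 0.0547), and 1 rose and 6 fell in KO. The medians were then -1.0 and -0.84, and the added falls were those of Jag2 and Dner, named after their values were seen.

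Among 29 genes of receptor processing, ligand trafficking and turnover, 6 rose and 12 fell in WT, and 3 rose and 10 fell in KO, with medians of -0.21 and -0.15. Adam17, a protease that can shed the receptor's outer part, rose by 0.96 in WT and 0.85 in KO. Psenen, a subunit of the γ-secretase that releases the intracellular part, rose by 0.94 and 0.98, while Psen2, one of its catalytic subunits, fell by 0.98 and 1.00. Adam10, the main protease of ligand-bound Notch, fell by 0.53 and 0.42. Nrarp, a target gene of Notch that limits the pathway, fell by 1.22 in WT and by 0.64 in KO, opposite in direction to Hes1 and Hey1. The ubiquitin ligases Neurl1b (-0.99 and -1.02), which acts on ligands, Dtx4 (-1.14 and -0.98), and Fbxw7 (-0.80 and -0.79), which marks the intracellular part for destruction, fell as well. Mfng, a sugar transferase that tunes which ligand a receptor hears, rose by 0.61 in each genotype. Dtx3, of the Deltex ligases, rose by 0.52 in WT. Scaled by total reads, 2 rose and 16 fell in WT and 2 rose and 15 fell in KO, and Mfng and Dtx3 were no longer called. Adam10 was named after its values were seen.

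Among 23 measured genes of the nuclear complex, 8 rose and 1 fell in WT, and 6 rose and 1 fell in KO, with medians of 0.25 and 0.31. Rbpj itself rose by 0.53 in WT and 0.47 in KO. The corepressor Tle1 rose by 0.87 and 0.98, and Tle4, its relative, fell by 1.11 and 1.08. Of the Mastermind-like coactivators, Maml2 rose by 0.47 in WT and 0.53 in KO and Maml3 by 0.57 in WT, and Tle2 rose by 0.55 in KO. Most of these rises depended on the scaling: by total reads 2 of 23 rose and 2 fell in WT, 1 rose and 2 fell in KO, and Rbpj was at 0.26 and 0.18 with adjusted p of 0.223 and 0.37.

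Among the relatives and partners of Hes and Hey, 9 of 13 were measured, of which 4 rose and 1 fell in each genotype. Bhlhe40 rose by 3.09 in WT and 2.62 in KO, Bhlhe41 by 2.11 and 1.76, Id1 by 2.10 and 1.47, and Id3 by 0.84 and 0.79. Bhlhe40 and Bhlhe41 encode repressors known to respond to hypoxia, and Id1 and Id3 encode inhibitors of basic helix-loop-helix factors. Id4, another Id gene, fell by 0.60 and 0.67. Hes6 and Hey2 did not pass, at -0.32 and 0.40 in WT and -0.20 and 0.04 in KO. These 2 genes, and Id3, whose mean log2 CPM was under 1, were named after their values were seen. Scaled by total reads, 4 rose and 3 fell in WT, and 3 rose and 3 fell in KO.

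Of the other progenitor genes, 24 of 25 were measured. In WT 14 rose and 1 fell, and in KO 15 rose and 1 fell, with medians of 0.48 and 0.54. Vim, the intermediate filament vimentin of radial glia and astrocytes, rose by 1.25 and 1.28, Sox21, a Sox factor of progenitors, by 0.96 and 0.94, and Ptprz1, a receptor phosphatase of radial glia, by 0.95 and 0.89. Prom1, which encodes the stem cell surface protein CD133 or prominin, rose by 1.15 in WT and 0.69 in KO, and Tnc, the matrix protein tenascin C, by 0.82 and 0.96. Emx1, a transcription factor of the dorsal cortex, was the gene that fell, by 0.99 and 0.97. Pax6, Nes and Fabp7, also markers of radial glia, did not pass, with values of 0.13, 0.32 and 0.26 in WT and 0.24, 0.26 and 0.27 in KO, and were named after their values were seen. By total reads, 9 rose and 1 fell in WT, and 6 rose and 1 fell in KO.

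The proneural and intermediate progenitor genes, which Hes repressors are known to hold down, did not move as a group. Of 12 measured genes 5 rose and 5 fell in WT, and 5 rose and 4 fell in KO. Neurog2, a proneural factor of the dorsal cortex, rose by 2.62 in WT and 2.41 in KO, more than any of the 10 genes. Gadd45g and Btg2, both linked to cell cycle exit and to stress, rose by 2.09 and 1.54 in WT and by 2.29 and 1.10 in KO, and Insm1 by 0.71 and 0.80. The genes of differentiated neurons in the list, Neurod6 (-1.15 and -1.08), Tbr1 (-1.03 and -0.90), Neurod2 (-0.70 and -0.69) and Elavl4 (-0.60 and -0.74), fell. Eomes was the other gene called lower in WT, and it was not called in KO. Scaled by total reads, Eomes was at -0.76 in WT (limma adjusted p = 0.000779). Eomes was named after its values were seen. Scaled by total reads, 4 rose and 7 fell in WT, and 3 rose and 7 fell in KO, where Btg2 was no longer called. Mfng stands in this list as well as among the processing genes.

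**Figure D4:**
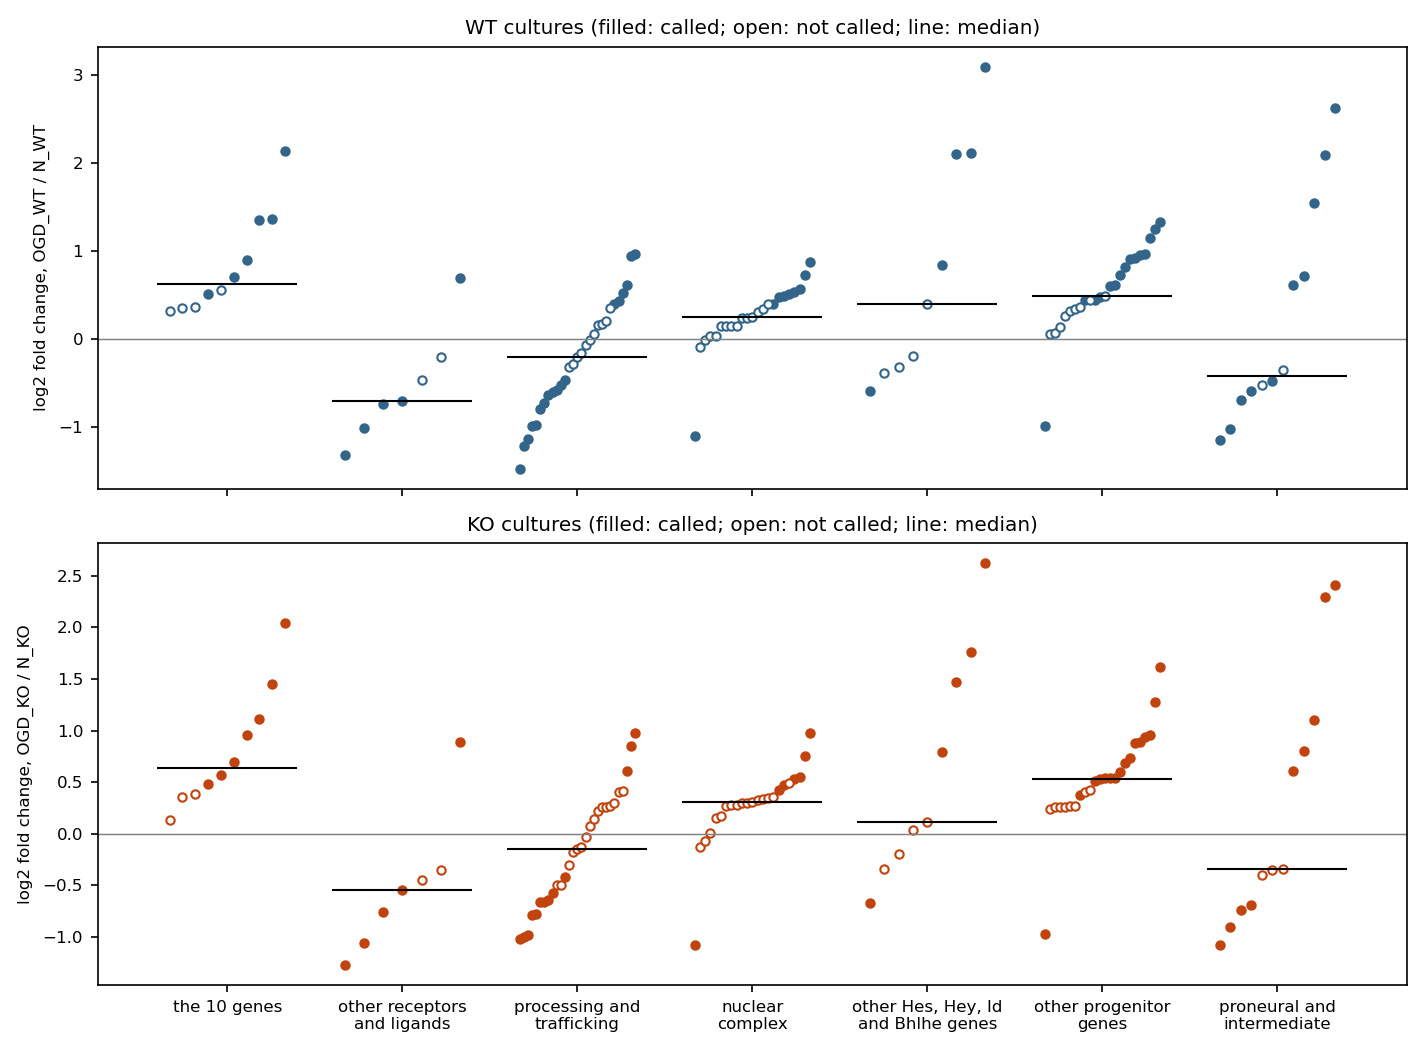
Log2 fold change, OGD against normoxia, of every measured gene of the 10 genes and of the 6 lists of pathway and progenitor genes, in WT (upper) and KO (lower), sorted within each list. Filled points are called by limma at an adjusted p under 0.05, open points are not, and the horizontal lines are medians; the 10 genes lie above 0 in both panels, and the medians of the other receptors and ligands, of the processing genes and of the proneural genes lie below 0.

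Markers of several cell types moved with these genes. The cultures are labelled as cortical neurons, and all 10 neuron markers were measured, with summed levels of 4823 to 6355 CPM in N_WT and 3072 to 6012 in OGD_WT, and of 5530 to 5692 in N_KO and 3258 to 4758 in OGD_KO. Of these 10 markers 5 fell in WT and 6 in KO, and 0 rose (9 fell in each when scaled by total reads). Glial markers were read as well: 9 of 12 astrocyte markers were measured, with no row for Gjb6, S100b and Agt. They summed to 1094 to 1280 CPM in N_WT and 1650 to 2124 in OGD_WT, and to 836 to 1477 in N_KO and 1501 to 2075 in OGD_KO. Of these 9 markers 6 rose and 1 fell in WT, and 5 rose and 0 fell in KO. Slc1a3, Gja1, Aldoc, Acsbg1 and Fgfr3, of which Slc1a3 and Fgfr3 are also genes of radial glia, rose in both genotypes. Aldh1l1 was called higher in WT only, Gfap fell in WT (-0.47), and Aqp4 and Slc1a2 were called in neither genotype. By total reads, 5 astrocyte markers rose and 1 fell in WT, and 4 rose and 1 fell in KO.

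All 10 proliferation genes rose in both genotypes, and their sums went from 507 to 659 CPM in N_WT to 940 to 1597 in OGD_WT, and from 503 to 750 in N_KO to 1118 to 1445 in OGD_KO. By total reads, 6 of 10 rose in WT and 7 of 10 in KO. The 10 Notch and progenitor genes summed to 253 to 302 CPM in N_WT, 421 to 575 in OGD_WT, 244 to 308 in N_KO and 417 to 483 in OGD_KO. The part of cell composition in the rise of the 10 genes was not tested. None of 8 microglia markers had a row in any table, and of 8 endothelial markers only Kdr had a row in the OGD tables, where it rose by 0.60 in WT and 1.11 in KO (not called in WT when scaled by total reads). Of 10 mural cell markers 4 had rows there, of which Acta2, Tagln and Cspg4 rose in both genotypes and Pdgfrb fell in WT. By total reads, 3 mural markers rose and 1 fell in WT, and 2 rose and 0 fell in KO. Of 7 measured oligodendrocyte lineage markers 0 rose and 3 fell in WT, and 1 rose and 0 fell in KO. Scaled by total reads, 0 of these 7 rose and 4 fell in each genotype.

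Levels are compared between genes per kilobase of merged exon (GENCODE annotation of GRCm38), as log2 CPM per kilobase on the joint scale. In N_WT Sox2 was the highest at 5.05 ± 0.12 (SD, n = 5), and none of its libraries came near those of Dll1 at 2.72 ± 0.34, Notch1 at 2.44 ± 0.13 and Notch2 at 2.43 ± 0.23, which overlapped one another. Hes5 at 1.80 ± 0.67 spanned 0.78 to 2.60, so that it overlapped those 3 genes, Hey1 at 1.54 ± 0.22 and the highest library of Jag1 (0.80). The lowest 4 were Jag1 at 0.34 ± 0.36, Hes1 at 0.30 ± 0.28, Notch3 at 0.29 ± 0.16 and Dll3 at 0.04 ± 0.28, which overlapped one another. Under OGD in WT the order changed: Sox2 (5.77 ± 0.23), Notch1 (3.36 ± 0.25), Dll1 (3.09 ± 0.36), Notch2 (2.96 ± 0.32), Hey1 (2.95 ± 0.43), Jag1 (2.56 ± 0.26), Hes5 (2.41 ± 0.47), Hes1 (1.81 ± 0.26), Notch3 (0.62 ± 0.25) and Dll3 (0.45 ± 0.26). Sox2 again stood clear of the rest, and the neighbours from Notch1 down to Hes1 overlapped. Jag1 thereby went from the lowest 4 to a level whose libraries (2.30 to 2.97) overlapped those of Notch2 (2.57 to 3.45). Hes1 stood above Notch3 and Dll3, with libraries of 1.52 to 2.22 against 0.36 to 0.98 for Notch3. In KO the same reading gave 0.45 ± 0.24 for Jag1 in N_KO and 2.54 ± 0.39 in OGD_KO, and 0.21 ± 0.20 and 1.81 ± 0.33 for Hes1. Several of the 10 overlap other annotated genes. The overlap is on the same strand for Sox2 (Sox2ot), Notch2 (Gm42819 and Gm42820) and Notch1 (Mir6996), where counting by strand would not separate them, and on the opposite strand for Notch1, Notch3, Dll1 and Hes5. Whether the counting used the strand is not given in the sources used here.

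Of all 13687 other genes, those with the profile most like each of the 10 were found by the smallest root mean square difference of gene-centred log2 CPM over the 20 libraries. Hes5 was nearest to Dll1, at 0.277, where the median of all genes was 0.583. Notch1 was nearest to Cdkn1b (0.107, median 0.588), a cell cycle inhibitor, and Sox2 to Trit1 (0.089, median 0.505), a tRNA-modifying enzyme. Hes1 was nearest to Ccdc174 (0.206, median 0.835), Hey1 to Crebzf (0.170, median 0.758), Dll1 to Wnk1 (0.127, median 0.468) and Dll3 to Kcnj10 (0.199, median 0.504). Notch2 was nearest to Kat6a (0.110, median 0.453) and Notch3 to Tcea1 (0.124, median 0.406). The nearest profile to Jag1 was that of Gm37621 at 0.284 (median 1.143), and none of the 10 genes had Jag1, Hes1 or Hey1 among its 3 nearest. All 20 libraries enter each of these values, which are a description with no test.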

How the data were processed

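Per the labels' protocols, 20 total RNA libraries (4 groups of 5) were prepared with a stranded kit. The authors deposited log2 CPM in 4 tables, 1 per comparison, with 14152 to 14375 genes each, mapped to mm10 per the submitters' processing notes. The aligner, counter, filter and scaling are not given in the sources used here. In each gene and group the extreme values lay where clipping at the 10th and 90th percentile puts them (0.6 of the extreme and 0.4 of its neighbour). This was inferred from the values and undone. Values then gave whole reads, within 0.05 reads for genes up to 500 reads, for at least 99.91% of genes, against 45.5% to 92.78% as deposited.

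Each table was fitted with limma 3.58.1 in R 4.3.3 (lmFit, eBayes with trend), with no block, two-sided. The interaction used recovered reads of 13688 genes in all 4 tables (prior count 2) and took the culture as a random block (duplicateCorrelation), whose consensus correlation was -0.19. Exact permutation tests, sequence searches and plots used Python 3.11.15 with scipy 1.17.1 and matplotlib 3.10.9. Culture numbers pair N with OGD libraries by their shared genotype and batch labels. The correlation across genes of the deviations of paired libraries from their group means ran from -0.66 to 0.05 in WT and from -0.77 to -0.07 in KO. The library of equal number was not the best match in any culture. The pairing therefore rests on the labels, and the values gave no sign of it.

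Each model was tested on simulated data. For OGD_WT against N_WT, with 200 of 14235 genes changed, the unclipped fit recovered 42.0% of changes of 0.5 on the log2 scale and 97.0% of changes of 1, and 2.1% of its calls were false. From clipped values 26.0% were false. These shares of false calls apply to 200 changed genes, where 6313 genes were called in the data. Unclipped values had been planned as the main ones, because clipping within a group understates the spread. For the interaction 86.5% of changes of 1 were recovered. That simulation gave the N and OGD libraries of a culture a shared effect. The data had a consensus correlation of -0.19 instead, so this share may not carry over to them. Alternatives covered scaling, prior counts, filters, voom, library weights, batches and left-out cultures, and 2 were added after seeing the data: scaling by total reads, and leaving out OGD_KO replicate 5. The 10 genes and the gene lists were chosen with earlier results of these data known. Besides the 10, genes were named by a rule: per list and OGD comparison, the up to 4 largest rises and 4 largest falls among called genes whose log2 CPM averaged 1 or more, and the nearest profiles. A gene of the nuclear complex list that this rule names is not reported here. Coordinates are from the GENCODE annotation of GRCm38, matched by symbol.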

Additional observations from a re-analysis of the deposited data

Results flagged for a closer look

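In 40 groups of 5 libraries (10 genes in 4 groups), 3 libraries stood apart from the other 4 of their group by Dixon's criterion at the 95% level, where chance gives about 2. In N_WT, replicate 2 read 3.12 log2 CPM for Notch3, where the others read 3.41 to 3.50. In N_KO, replicate 4 read 3.74 for Notch3, where the others read 3.22 to 3.31. In OGD_KO, replicate 2 read 3.46 for Hes1, where the others read 2.61 to 2.84.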

How the results depend on the processing

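Jag1, Hes1, Hey1 and Notch1 were called higher in both OGD comparisons under all alternatives run, and Sox2 in all but 2 in KO (batches 3.1 to 3.3 alone and total-read scaling). With the culture as a replicate block 5681 genes were called in WT and 4829 in KO, with 6 of the 10 genes in each, and the call of Dll3 in KO was the only one of the 10 to change. Between genotypes the block on replicate number, which names different cultures, called 3 genes in normoxia and 2 under OGD. On the deposited, clipped values 10 of the 10 genes were called in WT and 9 in KO, where calls over all genes went from 6313 to 8280 and from 5884 to 8024, with 9 genes called between genotypes in normoxia and 12 under OGD. Library weights, whose estimation did not converge, called 12309 genes in WT, 10573 in KO, 926 between genotypes in normoxia and 4757 under OGD, with 1 and 3 of the 10 in the last 2. There OGD_KO against OGD_WT turned to 0.15 for Notch1 and 0.29 for Hes5; the cause was not tested. In batches 3.1 to 3.3 alone (3 KO cultures) 2341 genes and 4 of the 10 were called in KO, and 2 genes between genotypes in normoxia. Total-read scaling called 4 of the 10 in KO and 2 genes between genotypes under OGD. Between genotypes a mean log2 CPM of at least 1 left 3 genes in normoxia, and under OGD a prior count of 0.5 gave 1 gene and the batch covariate 2. Leaving out 1 replicate at a time gave 4313 to 6993 genes and 6 to 7 of the 10 in WT, and 4025 to 5923 genes and 5 to 8 of the 10 in KO. It gave 3 to 5 genes between genotypes in normoxia and 1 to 7 under OGD, with 0 of the 10. Without OGD_KO replicate 5 alone, 9 of the 10 were called in KO. The interaction called 0 genes under every alternative. Depth limits Dll3, Hes1, Hes5 and Notch3, read at under 200 reads per library, and the differences of 0.5 or less.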
